A study of Mus musculus with 2 samples.

Results

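Whether a cell in the G1 phase of the cycle goes on to copy its DNA is set in large part by a small circuit of cyclins and inhibitors. Growth factors acting through ERK, and Myc, a transcription factor that drives growth genes, raise the D-type cyclins (Ccnd1, Ccnd2 and Ccnd3), which activate the kinases CDK4 and CDK6 so that these inactivate the retinoblastoma proteins. The INK4 inhibitors (Cdkn2a and Cdkn2b) block CDK4 and CDK6, and the CIP/KIP inhibitors (Cdkn1a, or p21, Cdkn1b, or p27, and Cdkn1c, or p57) bind cyclin-CDK complexes more widely. In epithelia, TGF-β is known to raise Cdkn2b and to lower Myc, and p53 to raise Cdkn1a. The 9 genes were taken by symbol from the 31053 in the count tables, and their levels were read in the 2 libraries of the study and by cell state.

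Both libraries came from organoids, small epithelial structures grown in Matrigel from the bladder lining (urothelium) of wild type C57BL/6 mice aged 8 to 10 weeks, and neither was sorted. Library P held proliferative organoids (NMU-O-P), kept in complete medium, to which EGF, Noggin, the TGF-β receptor kinase inhibitor LY2157299, RSPO1 and WNT3A had been added. For differentiation experiments the study describes a week in this medium, transfer of the intact organoids to new Matrigel and a further week in either medium, and no other scheme is given for P. Library D held differentiated organoids (NMU-O-D), which were grown for a week in that medium and then for a further week without these additions. With 1 library for each, medium, culture and library preparation cannot be told apart, no test between P and D was possible, and every interval given is a 95% interval of counting error only.

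After cells with over 800 genes and at most 12% mitochondrial UMIs (counted molecules) were kept, P held 6818 of 8194 barcodes and D 4896 of 6975, with medians of 3405.5 and 3227.5 UMIs per cell. Levels below are counts per 1000000 UMIs (CPM), from the UMIs summed over a library or group of cells. The libraries differed widely: the UMI share of ribosomal protein genes was 33.7% to 41.5% in the clusters of P described below and 17.6% to 22.1% in those of D, and the median gene among the 10719 with at least 100 UMIs was 0.41 higher in D on the log2 scale, so a ratio near that value was that of a typical gene. The summed level of the 12 early-response genes, which dissociation of tissue can induce, moved with the libraries, at 1554 CPM in P and 3129 CPM in D. Epithelial markers (Epcam, Cdh1 and Krt5) were abundant in both libraries, with summed levels of 3968 and 4720 CPM. Markers of other cell types were scarce: the 5 fibroblast markers summed to 1.72 in P and 62.5 in D (nearly all Dcn), the 5 leukocyte markers to 0.937 and 20.2 (nearly all Laptm5 in D, with Ptprc at 1 and 2 UMIs), the 4 endothelial markers to 5.17 and 3.30 (Cdh5 and Kdr at 0), and the 4 globin genes were at 0.

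In D, Ccnd1 and Myc were lower and Ccnd2, Cdkn1a, Cdkn1c and Cdkn2b higher than in P, each by at least 2-fold, although Ccnd2 and Cdkn1a fell short of 2-fold when the shift of the median gene was taken off. All 9 genes had at least 100 UMIs over both libraries. Thus 4 of 9 were at least 2-fold higher in D, where 13.5% of the genes with that many UMIs were, and 2 of 9 were at least 2-fold lower, against 4.73%. Ccnd3, Cdkn1b and Cdkn2a differed by less than 2-fold.

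**Figure D1:**
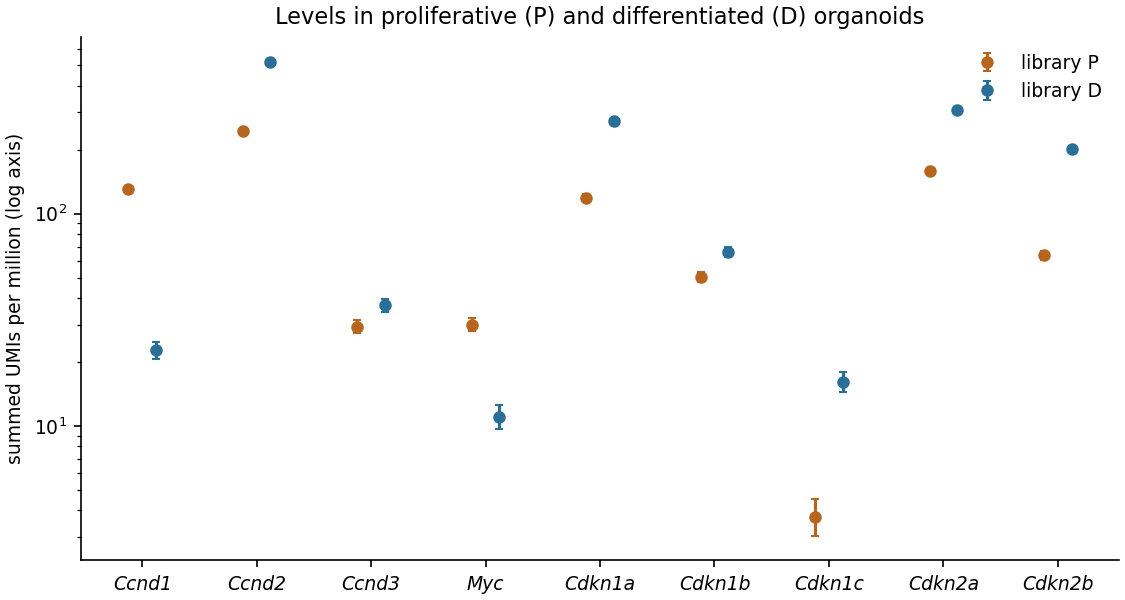
Level in CPM (log axis) of the 9 genes in library P and library D, 1 library each; points are levels over all kept cells and bars are 95% Poisson intervals, smaller than the point for the abundant genes. Ccnd1 (131 in P, 22.8 in D) and Myc (30.0 and 11.0) lie lower in D, and the other 7 genes lie higher, of which Ccnd3 and Cdkn1b turn slightly lower when the shift of the median gene is taken off.

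Ccnd1 (ENSMUSG00000070348, chr7:144929931-144939925, GRCm38, minus strand), the cyclin most closely tied to growth factor signalling, counted 3496 UMIs in P and 462 in D. Its level was 131 CPM (127 to 135) in P and 22.8 (20.7 to 24.9) in D, which is 5.76-fold lower (5.22 to 6.36). Of the 10719 genes, 144 (1.34%) had a lower ratio than Ccnd1.

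Ccnd2 (ENSMUSG00000000184, chr6:127125162-127152193, minus strand), whose product acts on the same kinases, went the other way. Its level was 246 CPM (240.4 to 252) in P and 517 (507 to 527) in D, a 2.10-fold difference (2.03 to 2.16). It was the most abundant of the 9 genes by UMIs in both libraries. Ccnd3 (ENSMUSG00000034165, chr17:47505051-47599691, plus strand) lay at 29.3 (27.3 to 31.4) and 37.1 (34.5 to 39.8), a log2 ratio of 0.34 (0.19 to 0.49) that is close to that of the median gene. Bysl, on the opposite strand, overlaps Ccnd3, with 168 UMIs in P and 242 in D, and the sources used here do not say how strand was used in counting.

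A transcript is tagged once at its 3′ end whatever its length, so the D-type cyclins were also added up. Their sum was 407 CPM (399 to 414) in P and 577 (566 to 587) in D, a ratio little above that of the median gene. The composition differed far more. Ccnd1 made up 32.2% (31.3 to 33.1, Clopper-Pearson) of them in P and 3.95% (3.60 to 4.31) in D, and Ccnd2 60.6% and 89.6%. Ccnd3 held 7.21% and 6.43%.

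The shares of cells with each cyclin differed in the same directions. When every cell was thinned to 2100 UMIs, which left 6638 cells in P and 4417 in D, a Ccnd1 UMI was found in 21.5% (20.5 to 22.5) of P cells and 4.30% (3.72 to 4.94) of D cells. Without thinning the shares were 33.1% and 7.97%. Ccnd2 was found in 35.1% and 51.6% of thinned cells, and in 49.7% and 62.9% of all kept cells. Cells with Ccnd1 but no Ccnd2 were 11.7% of P and 1.20% of D, and cells with Ccnd2 but no Ccnd1 were 25.3% and 48.5%. Both were found in 650 of the 1426 thinned P cells with Ccnd1, and in 137 of the 190 such D cells. The shares thus do not show that one cyclin replaced the other within cells. Free RNA in droplets was not separated from cellular RNA, and these epithelial cells include no type that surely lacks the genes, so the lowest share in any cluster (2.22% for Ccnd1, in D cluster 0 below) cannot be read as expression.

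Myc (ENSMUSG00000022346, chr15:61985391-61990374, plus strand) counted 801 UMIs in P and 224 in D. Its level was 30.0 CPM (28.0 to 32.2) in P and 11.0 (9.63 to 12.6) in D, 2.72-fold lower (2.34 to 3.17). In thinned cells a Myc UMI was found in 6.39% of P cells and 2.54% of D cells, against 10.5% and 4.35% without thinning.

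Of the CIP/KIP inhibitors, Cdkn1a (ENSMUSG00000023067, chr17:29090976-29100727, plus strand) had a level of 119 CPM (115 to 123) in P against 273 (266 to 280.5) in D, 2.29-fold higher (2.20 to 2.40). Cdkn1b (ENSMUSG00000003031, chr6:134920401-134925513, plus strand) lay at 50.1 (47.5 to 52.9) and 66.0 (62.5 to 69.6), a log2 ratio of 0.40 (0.29 to 0.51), again that of a typical gene. Cdkn1c (ENSMUSG00000037664, chr7:143458339-143461050, minus strand) was the scarcest of the 9, with 99 UMIs in P and 327 in D. Its level was 3.71 CPM (3.02 to 4.52) in P and 16.1 (14.4 to 17.9) in D, 4.34-fold higher (3.46 to 5.49), the highest ratio among the 9 genes.

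The INK4 genes lie next to each other on chromosome 4 and were both higher in D. Cdkn2b (ENSMUSG00000073802, chr4:89306299-89311039, minus strand), which encodes p15, had a level of 63.8 CPM (60.8 to 66.9) in P against 202 (196 to 209) in D, 3.17-fold higher (3.00 to 3.36). Of the genes tested, 95.9% had a lower ratio. Cdkn2a (ENSMUSG00000044303, chr4:89274471-89294653, minus strand) was at 159.5 (155 to 164) and 309.7 (302 to 317), 1.94-fold higher (1.87 to 2.02). Its annotated transcripts start from separate exons, at positions 89281986-89282192 for the p16 (Ink4a) form and 89294334-89294653 for the p19 (Arf) form, and end in the same exon, so 3′ counts do not tell the products apart.

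The inhibitors were also found together more often, which the higher share of cells with each alone would bring. Whether they were together beyond what the single shares give was not tested. At least 1 of Cdkn1a, Cdkn2a and Cdkn2b was detected in 44.4% (43.2 to 45.6) of thinned P cells and 71.3% (69.9 to 72.6) of thinned D cells. At least 2 were found in 9.70% and 31.2%, and all of them in 0.889% and 7.09%. Single shares in thinned cells were 18.3% in P and 36.6% in D for Cdkn1a, 25.5% and 42.3% for Cdkn2a, and 11.1% and 30.7% for Cdkn2b. Without thinning they were 30.3% and 49.4%, 39.6% and 55.9%, and 19.4% and 44.2%.

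To show what lies in front of these genes, the 250 bases before each start annotated by RefSeq (GRCm38.p6) were read, which were at hand for 5 of the 9 genes (8 windows for Ccnd3, Cdkn1a, Cdkn1b, Cdkn2a and Cdkn2b). They were searched on both strands for the GC box (GGGCGG), the E-box (CACGTG, the site read by Myc and Max), the TATA box (TATAAA) and the p53 half-site, each counted apart and whether or not it overlapped another. Of 32851 windows of this length, 32.7% held a GC box, 6.02% an E-box, 12.4% a TATA box and 7.13% a p53 half-site. A GC box was in 5 of the 8 windows. No E-box or TATA box with these letters was in any of the 8, and p53 half-sites were in 1, that of the upstream start of Cdkn1a. The windows of Cdkn1a and Cdkn2b, both over 2-fold higher in D, are shown beside that of Cdkn1b, which was not, with GC boxes and p53 half-sites in capitals. They lie at chr17:29090729-29090978 (Cdkn1a, upstream start) and chr17:29093519-29093768 (Cdkn1a, downstream start) on the plus strand, chr4:89311033-89311282 (Cdkn2b) on the minus strand and chr6:134920151-134920400 (Cdkn1b) on the plus strand.
Cdkn1a, upstream start: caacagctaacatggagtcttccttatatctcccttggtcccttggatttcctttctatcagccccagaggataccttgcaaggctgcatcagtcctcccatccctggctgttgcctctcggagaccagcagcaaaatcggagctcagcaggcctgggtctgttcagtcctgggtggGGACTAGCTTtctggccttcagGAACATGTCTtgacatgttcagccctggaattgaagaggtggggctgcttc
Cdkn1a, downstream start: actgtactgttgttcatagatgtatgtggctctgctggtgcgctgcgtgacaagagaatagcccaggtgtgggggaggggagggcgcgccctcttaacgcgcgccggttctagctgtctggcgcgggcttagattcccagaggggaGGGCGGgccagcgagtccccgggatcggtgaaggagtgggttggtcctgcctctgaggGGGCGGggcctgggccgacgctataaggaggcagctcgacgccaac
Cdkn2b: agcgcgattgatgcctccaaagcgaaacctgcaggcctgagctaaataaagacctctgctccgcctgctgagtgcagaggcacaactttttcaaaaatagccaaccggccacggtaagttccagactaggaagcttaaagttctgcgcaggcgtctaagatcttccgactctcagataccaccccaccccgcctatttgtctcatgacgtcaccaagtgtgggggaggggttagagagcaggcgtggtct
Cdkn1b: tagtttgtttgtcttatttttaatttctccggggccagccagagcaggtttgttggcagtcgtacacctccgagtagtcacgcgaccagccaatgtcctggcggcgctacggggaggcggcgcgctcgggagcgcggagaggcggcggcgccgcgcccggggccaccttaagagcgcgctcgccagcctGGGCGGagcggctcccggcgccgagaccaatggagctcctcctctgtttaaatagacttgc
A match is a run of letters and not a bound site, and counts at the 3′ end do not show which start was used.

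Levels were next read by cell state, in clusters made within each library from genes other than these 9. P cluster 0 (2648 cells) was led by Sprr3, Cnfn and Psca, with all 6 squamous and all 9 intermediate markers raised over the rest of P. All 3 detected luminal markers were raised there too, at a low summed level (37.7 CPM, beside 3763 in D cluster 2 below). P cluster 1 (2602 cells) was led by Ctla2a and Nbl1, with 5 of 7 basal markers raised, P cluster 2 (1217 cells) by Fmo2 and Mmp7, and P cluster 3 (351 cells) by Ccna2 and Hmmr, with all 12 mitosis genes and 6 of 7 basal markers raised. D cluster 0 (2797 cells) was led by Krt1, Ces1d and Reg1. D cluster 1 (1320 cells) was led by Cav1 and Acta2, with 6 of 7 basal markers and all 9 detected mitosis genes raised. D cluster 2 (779 cells) had Upk3a and Upk3b among its leading genes and all 5 detected luminal markers raised. It also had 8 of 9 intermediate and 3 of 4 detected squamous markers raised. All 12 S-phase genes were raised in P cluster 3 and in D cluster 1, and 8 of 12 in P cluster 1. Median depth ran from 2679 to 4419 UMIs per cell.

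**Figure D2:**
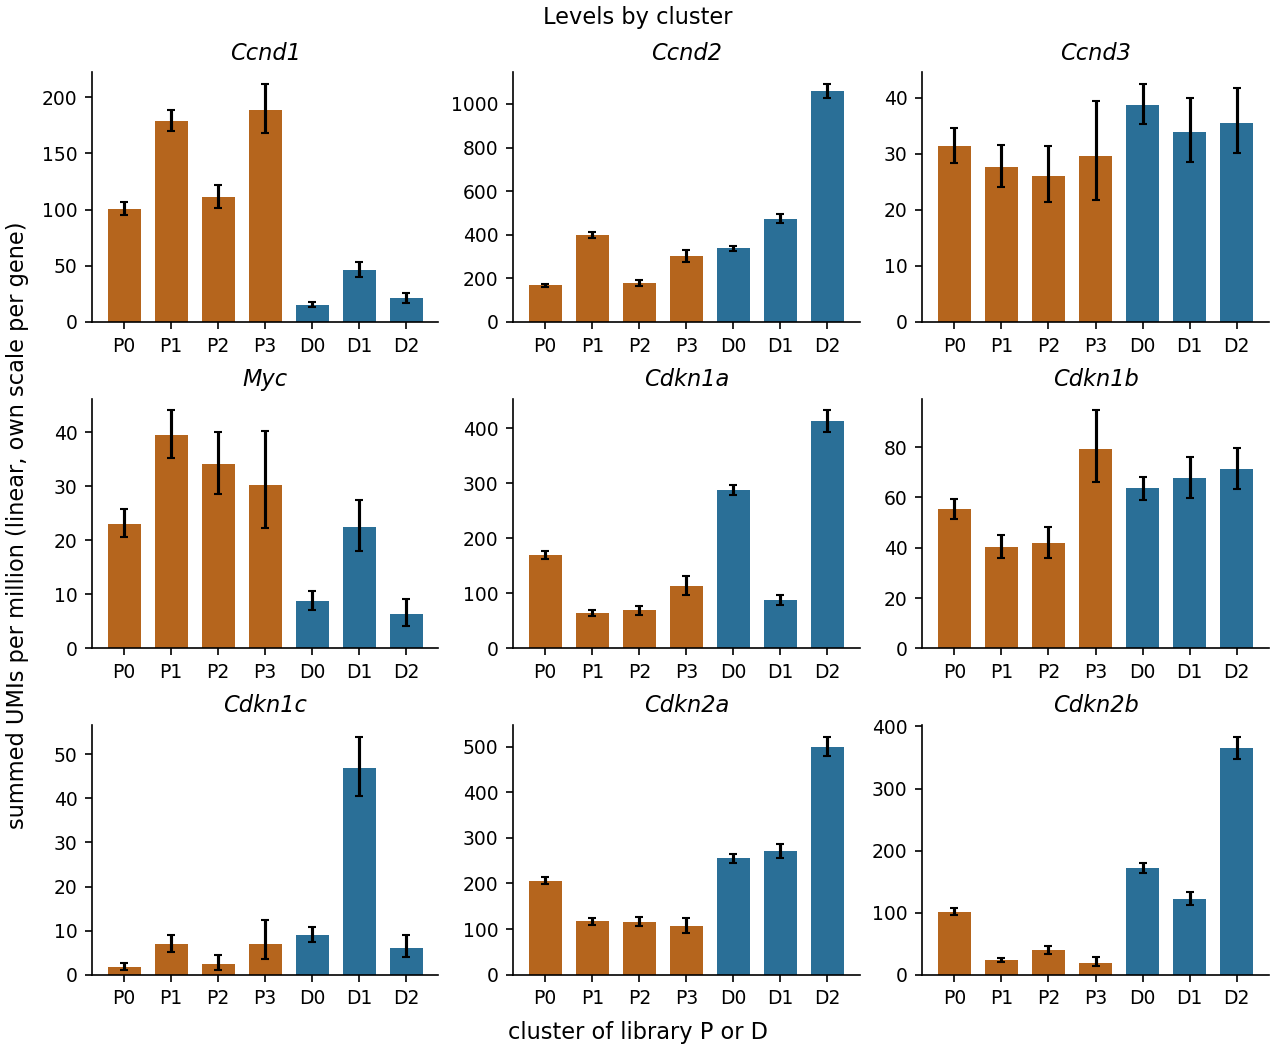
Level in CPM (linear axis from 0, own scale in each panel) of the 9 genes in the 4 clusters of library P and the 3 clusters of library D; bars are levels and lines 95% Poisson intervals. Ccnd1 is higher in each P cluster than in any D cluster, Cdkn1c stands out in D cluster 1 at 46.9, and Ccnd2, Cdkn1a, Cdkn2a and Cdkn2b are highest in D cluster 2.

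Every P cluster held more Ccnd1 than every D cluster. Its level was 189 CPM in P cluster 3, 179 in P cluster 1, 111 in P cluster 2 and 101 in P cluster 0, then 46.4 in D cluster 1, 21.1 in D cluster 2 and 15.1 in D cluster 0. Within this order P clusters 3 and 1, P clusters 2 and 0, and D clusters 2 and 0 had overlapping intervals. The share of all genes with every P cluster above every D cluster was not counted. P cluster 1 and D cluster 1, both with raised basal markers, thus held more Ccnd1 than clusters 0 and 2 of their own library.

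Myc had a similar order, from 39.4 in P cluster 1, 34.0 in P cluster 2 and 30.2 in P cluster 3 to 8.76 in D cluster 0 and 6.32 in D cluster 2. Here D cluster 1, at 22.4 (18.1 to 27.4), could not be told from P cluster 0, at 23.0 (20.5 to 25.8). Only the step from D cluster 1 down to D cluster 0 was free of overlap between neighbours.

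Ccnd2 was ordered otherwise. D cluster 2 held 1059 CPM (1029 to 1091), D cluster 1 473, P cluster 1 399.9, D cluster 0 337, P cluster 3 301, P cluster 2 179.6 and P cluster 0 168. P cluster 1 was thus 2.39-fold above P cluster 0, while in D the uroplakin cluster, D cluster 2, was 2.24-fold above D cluster 1. A Ccnd2 UMI was found in 79.3% of the thinned cells of D cluster 2 (91.1% without thinning) and in 26.0% of those of P cluster 0 (45.4%). Ccnd3 ran only from 26.0 to 38.7 over the 7 clusters, and every neighbouring pair in its order overlapped.

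**Figure D3:**
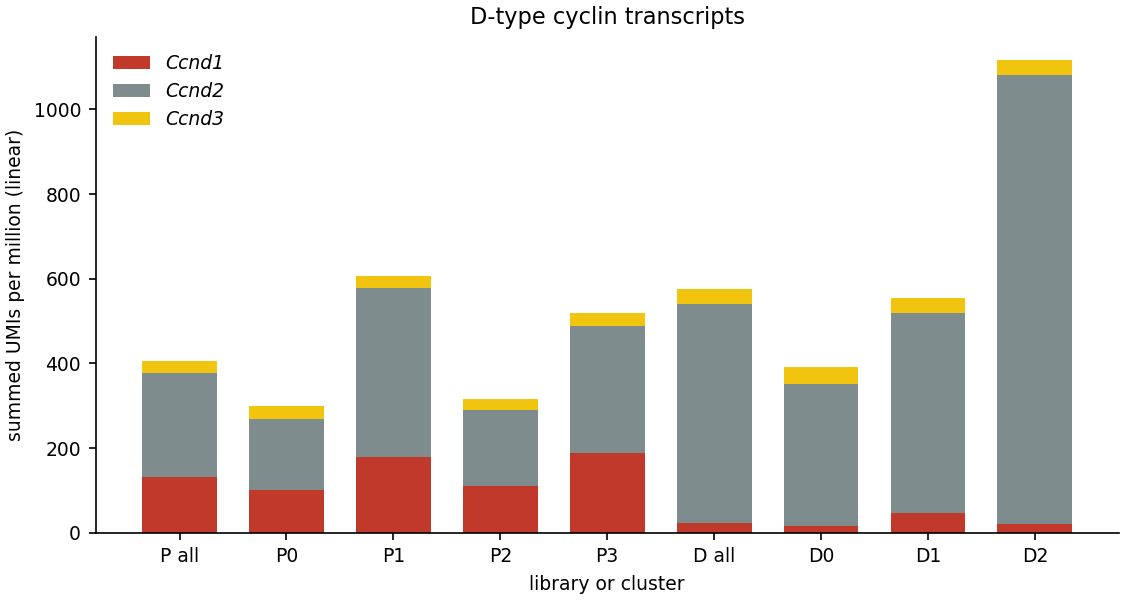
Level in CPM (linear axis from 0) of the D-type cyclins, stacked by gene, in each library and in each cluster. The sum is 1116 in D cluster 2, where Ccnd1 is 1.89% of it, and 607 in P cluster 1, where Ccnd1 is 29.5%.

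In all P clusters Ccnd1 made up 29.5% to 36.4% of D-type cyclin UMIs, although their sum ranged from 299.8 to 607 CPM. In D clusters it made up 1.89% to 8.39%, with sums from 391 to 1116. The ranges of the share did not overlap between libraries, while those of the sum did.

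The CIP/KIP inhibitors differed among themselves. Cdkn1a was highest at 413 CPM (393 to 432) in D cluster 2, 288 in D cluster 0 and 169 in P cluster 0, and lowest at 69.2 in P cluster 2 and 63.5 in P cluster 1. In D cluster 1 it was 88.1, below P cluster 0 and with an interval that overlaps that of P cluster 3, at 113. Cdkn1b was highest in P cluster 3, at 79.4 (66.1 to 94.5), with an interval that overlaps that of D cluster 2, and lowest in P cluster 1, at 40.3 (36.0 to 44.9). The D clusters lay at 63.6 to 71.2.

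Cdkn1c stood apart in D cluster 1, at 46.9 CPM (40.6 to 54.0, 195 UMIs). It was at most 8.92 in the other 6 clusters. D cluster 1 was also where the summed level of the 5 fibroblast markers was highest, at 231 CPM, against at most 23.0 in any other cluster. Nearly all of this was Dcn (1234 of 1269 UMIs in D), and the collagen genes counted 10 UMIs (Col1a1), 19 (Col3a1) and 0 (Col1a2) in the whole of D. The part of these cells in the Cdkn1c level was not tested.

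Cdkn2b and Cdkn2a had similar orders over the clusters. Cdkn2b went from 19.5 in P cluster 3, 23.5 in P cluster 1 and 39.8 in P cluster 2 to 101 in P cluster 0, 122 in D cluster 1, 172 in D cluster 0 and 365 (347 to 383) in D cluster 2. Cdkn2a went from 107 in P cluster 3 to 206 in P cluster 0, 255 in D cluster 0, 270.4 in D cluster 1 and 500.1 (479 to 522) in D cluster 2. Every D cluster was above every P cluster for both genes, but only before the shift of the median gene is taken off. The smallest gaps, from P cluster 0 to D cluster 1 for Cdkn2b and to D cluster 0 for Cdkn2a, were below that shift. How many other genes have such an order was not counted. Over the 7 clusters the log2 levels of Cdkn2b and Cdkn2a had a Pearson r of 0.97. This describes 7 points that share libraries and depth.

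Side by side within a library, 2-fold differences of the 9 genes were as follows. P cluster 0 over P cluster 1 had Cdkn1a (log2 ratio 1.42, 1.28 to 1.56) and Cdkn2b (2.11, 1.89 to 2.34) higher and Ccnd2 (-1.25, -1.33 to -1.18) lower, of 8 genes with at least 100 UMIs, where 7.87% of all genes tested were higher and 8.41% lower. P cluster 0 over P cluster 2 had the same pair of inhibitors higher (log2 ratios 1.29 and 1.35, backgrounds 4.92% and 1.63%). P cluster 2 over P cluster 1 had Ccnd2 lower (log2 ratio -1.15, backgrounds 2.06% higher and 4.25% lower), and P cluster 3 over P cluster 1 had 0 of 8 in either direction (4.63% and 1.24%). In D, cluster 2 over cluster 1 had Ccnd2 (1.16), Cdkn1a (2.23) and Cdkn2b (1.58) higher and Ccnd1 (-1.14), Myc (-1.82) and Cdkn1c (-2.95) lower, that is 3 and 3 of 9, against 7.31% and 8.13%. D cluster 0 over D cluster 1 had Cdkn1a (1.71) higher and Ccnd1 (-1.62), Myc (-1.35) and Cdkn1c (-2.39) lower (5.89% and 5.73%), and D cluster 2 over D cluster 0 had Ccnd2 (1.65) and Cdkn2b (1.08) higher (2.64% and 2.45%).

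Among 10710 other genes with at least 100 UMIs, those with the pattern over the 7 clusters most like that of a given gene were Kyat3, Gatsl3 and Ltb4r1 for Ccnd1 (Pearson r of log2 levels 0.98 to 0.99), Tnfrsf10b, Myadm and Tsc1 for Ccnd2 (0.97 to 0.99) and Fam43a, Fgd2 and Enpp2 for Myc (0.97 to 0.98). For Ccnd3 they were D730001G18Rik, Rbl2 and Pde4d, and for Cdkn1b Tuba1c, Fopnl and Elof1. They were Ubap2l, Slc7a6 and Ncam1 for Cdkn1c, and Ap3s1, Cdh1 and Mmp15 for Cdkn2b, and for Cdkn2a Srp14, Ssu72 and Magi1. With 7 points and this many candidates, high values of r are common.

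Since D held fewer dividing cells, the libraries were compared outside them. A thinned cell was called mitotic with at least 2 of 12 mitosis genes, and S-phase with at least 2 of 12 S-phase genes when not mitotic. Mitotic cells were 4.96% (4.45 to 5.51) of P and 0.249% (0.124 to 0.445) of D, and S-phase cells 2.43% and 2.85%. Cells with genes of both lists counted as mitotic, so the S-phase shares are not those of all cells with S-phase genes. In P the summed level of S-phase genes was 553 CPM in cluster 3 and at most 151 in the other clusters. Of the 126 S-phase cells of D, 109 had exactly 2 of the genes, and of the 161 of P, 125 had, so most lie at the limit.

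Within P, the cycling cells held more Ccnd1 and Ccnd2 and less Cdkn2a than all other cells together, which include P cluster 0. Against P cluster 1, the other P cluster with mostly basal markers raised, P cluster 3 held less Ccnd2 (log2 ratio -0.41, -0.55 to -0.27), with ratios of 0.08 (-0.11 to 0.26) for Ccnd1, -0.14 (-0.38 to 0.10) for Cdkn2a and -0.26 (-0.86 to 0.29) for Cdkn2b. Ccnd1 was at 183 CPM in mitotic cells, 206 in S-phase cells and 126 in cells with neither call, a log2 ratio to the latter of 0.54 (0.36 to 0.72) and 0.71 (0.45 to 0.97). Ccnd2 was at 288, 364 and 239.9. Cdkn2b was at 24.7 in mitotic cells, 55.2 in S-phase cells and 66.6 in cells with neither call, 2.69-fold lower in mitotic cells, which makes it the only one of the 8 genes with at least 100 UMIs that differed by 2-fold there, against a background of 5.33% of genes lower and 7.68% higher. Cdkn2a was at 108, 115 and 164. Cdkn1b was higher in mitotic cells, at 80.9 against 48.6, while Myc was at 29.4 and 29.8 (log2 ratio -0.02, -0.49 to 0.42). None of the 8 differed by 2-fold in S-phase cells, where 4.60% of genes were higher and 5.92% lower.

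Leaving the cycling cells out moved the ratios between libraries little. With so few cells taken out, a large move was hardly possible, as cells with neither call were 92.6% of P and 96.9% of D. Cells with exactly 1 gene of a class list also stayed in. In cells with neither call (6148 in P, 4280 in D) Ccnd1 was 5.62-fold lower and Myc 2.77-fold lower in D, and Ccnd2 was higher by 1.13 on the log2 scale, Cdkn1a by 2.32-fold, Cdkn1c by 3.93-fold and Cdkn2b by 3.14-fold. These are the same 4 genes higher and 2 lower by 2-fold as over all cells, with backgrounds of 14.2% and 4.14%. Cdkn2a was 1.92-fold higher. The 11 mitotic cells of D were too few to compare, with 4 Ccnd1 UMIs in all.

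Like cells of both libraries were then compared in joint clusters, made without the 9 genes and without genes that differed by 2-fold between libraries. Joint cluster 0 held 3009 cells of P and 2710 of D, mostly of P cluster 0 (59.5%) and D cluster 0 (95.2%). Joint cluster 1, with 2588 and 1333 cells, was drawn from P cluster 1 (96.6%) and D cluster 1 (93.7%). Joint cluster 2, with 876 and 825 cells, took its P cells from P cluster 0 (97.7%) and its D cells from the uroplakin cluster (83.4%), so its cells differ in kind between the libraries. Joint cluster 3, mostly of P cluster 3 (91.9%), had 345 cells of P and 28 of D. There 5 genes had at least 100 UMIs, and Ccnd1, with 317 and 14 UMIs, was lower by 2-fold, against 5.74% of genes lower and 7.36% higher.

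**Figure D4:**
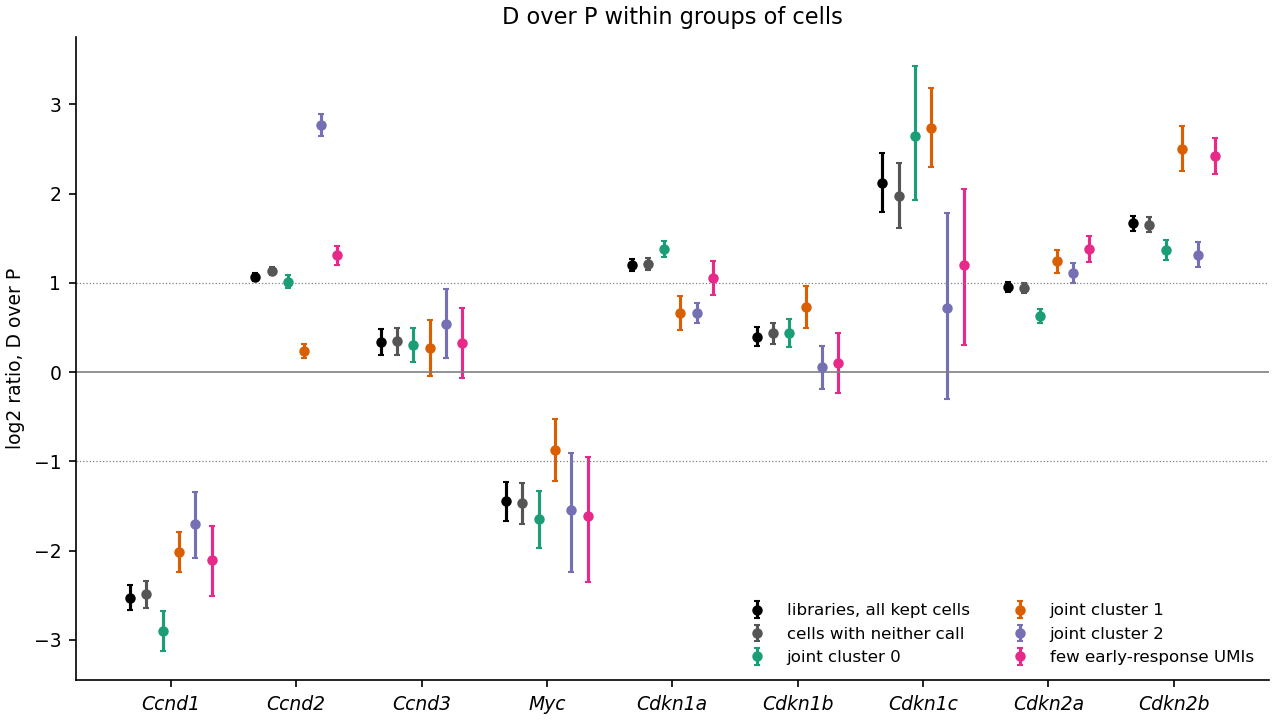
Log2 ratio of CPM, D over P, for the 9 genes over all kept cells, in cells called neither mitotic nor S-phase, in joint clusters 0 to 2 and in thinned cells with at most 2 early-response UMIs; lines are 95% intervals of counting error and dotted lines mark 2-fold. Ccnd1 lies below the lower dotted line throughout and Cdkn2b above the upper one, while Ccnd2 goes from 0.24 in joint cluster 1 to 2.77 in joint cluster 2.

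In joint cluster 0, the same 4 genes were at least 2-fold higher and the same 2 lower (backgrounds 13.4% and 3.01%), with Ccnd1 at 114 CPM in P and 15.4 in D and Cdkn1a at 112 and 291. In joint cluster 1, Cdkn1c, Cdkn2a and Cdkn2b were at least 2-fold higher and Ccnd1 lower (16.4% and 3.65%). There Cdkn2b went from 22.3 (19.1 to 25.8) in P to 126 (116 to 138) in D, 5.67-fold, and Cdkn1c from 7.13 to 47.3, 6.64-fold. Ccnd2 in the same cells was at 397 and 467, a log2 ratio of 0.24 (0.15 to 0.32), and Cdkn1a at 62.8 and 99.3, 0.66 (0.47 to 0.85). Myc was 1.82-fold lower.

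In joint cluster 2, Ccnd2 had a level of 151 CPM (139.7 to 164) in P against 1034 (1003 to 1066) in D, 6.83-fold higher, with Cdkn2a 2.16-fold and Cdkn2b 2.49-fold higher and Ccnd1 3.27-fold and Myc 2.93-fold lower. These 3 genes higher and 2 lower are of 8 with at least 100 UMIs, against backgrounds of 19.1% and 4.12%. Cdkn1c counted 14 and 23 UMIs there. Across joint clusters 0, 1 and 2, Ccnd1 was lower by 7.44-fold, 4.04-fold and 3.27-fold, and Cdkn2b higher by 2.57-fold, 5.67-fold and 2.49-fold. No interval of the ratio of Cdkn1b reached 2-fold in any of them.

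As early-response transcripts were more abundant in D, the comparison was repeated in thinned cells with at most 2 UMIs of that list, 3155 in P and 888 in D. There Ccnd1 was 4.30-fold and Myc 3.07-fold lower in D, and Ccnd2 was 2.47-fold, Cdkn1a 2.08-fold, Cdkn2a 2.60-fold and Cdkn2b 5.34-fold higher, of 8 genes with at least 100 UMIs (backgrounds 12.2% higher and 4.11% lower). Cdkn1c had 31 and 20 UMIs, and a log2 ratio of 1.20 (0.31 to 2.05). The cut kept 47.5% of thinned cells in P and 20.1% in D, and it can change the mix of clusters. In D the summed level of the list was 1996 CPM in cluster 2 and 3730 in cluster 0. In P it was 1255 CPM in cluster 1 and 1728 in cluster 0. The part of this mix in the ratios was not tested.

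The rest of the pathway was read from gene lists. Of 14 other G1 and G1/S regulators with at least 100 UMIs, 2 were lower in D by 2-fold or more and 0 higher, with a median log2 ratio of 0.043 beside 0.41 over all genes tested. Medians of lists below are also over their genes with at least 100 UMIs. The lower ones were the other INK4 inhibitors, Cdkn2c (p18), at 8.51 and 2.31 CPM, and Cdkn2d (p19), at 16.8 and 6.85, which thus went against Cdkn2a and Cdkn2b. The kinases that D-type cyclins activate were not lower: Cdk4 was at 111 and 150.5 and Cdk6 at 64.4 and 125. The E-type cyclins, which act at the entry to S phase, were scarce, with Ccne1 at 53 and 13 UMIs and Ccne2 at 60 and 28.

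Among Myc partners and antagonists, 2 of 8 genes were at least 2-fold higher and 1 lower (median 0.33), beside 13.5% and 4.73% of all genes tested. Mxd4, which competes with Myc for Max, had a level of 27.3 CPM in P against 155.8 in D, and Mycl, a Myc paralog, at 38.2 and 90.9. Mxd1, of the same family as Mxd4, was lower, at 27.0 and 12.2, and Max itself was at 31.7 and 38.2. Of 12 Myc target genes 0 were higher and 2 lower by 2-fold (median 0.23): Npm1, a nucleolar protein, at 1963 and 674, and Ldha, a glycolytic enzyme, at 692 and 250.1. The other nucleolar genes of the list had log2 ratios of -0.024 (Ncl), 0.081 (Fbl), 0.45 (Nop58), 0.51 (Nop56) and 0.74 (Nolc1).

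**Figure D5:**
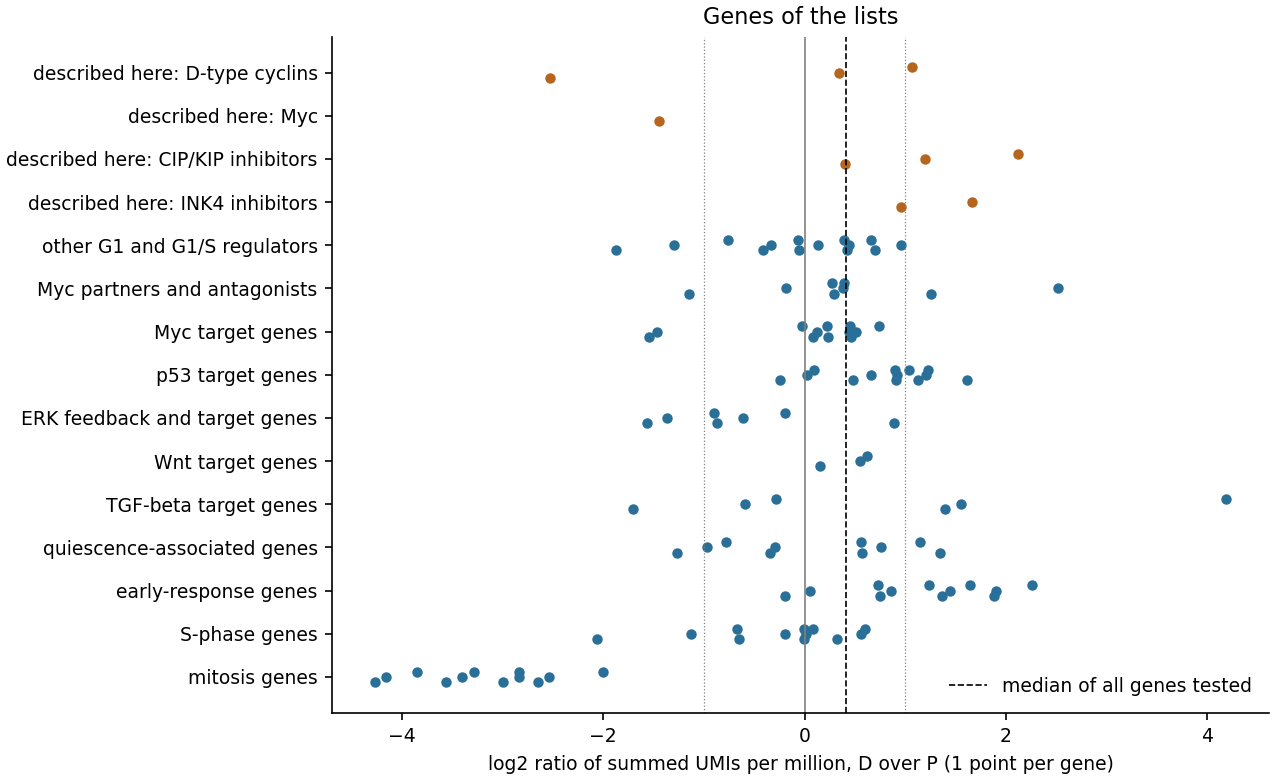
Log2 ratio of CPM, D over P, for each gene with at least 100 UMIs in the lists used here; 1 point is 1 gene, the dashed line is the median of all genes tested (0.41) and dotted lines mark 2-fold. All 12 mitosis genes lie below -1, 5 of 13 p53 target genes lie above 1 and none below -1, and the TGF-beta list holds Pmepa1, at 4.19.

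Among 13 p53 target genes, 5 were at least 2-fold higher in D (13.5% of all genes tested) and 0 lower (4.73%), with a median of 0.91. Of the 5, only Btg2 stayed above 2-fold with the shift of the median gene taken off. They were Btg2, an antiproliferative gene, at 110.2 and 337 CPM, Bax, a cell death gene, at 77.9 and 180.1, and Trp53inp1, Sesn2 and Plk2. Btg2 and Plk2 are also early-response genes in many cells. Mdm2, the p53 antagonist, was at 34.1 and 64.2 (log2 ratio 0.91), while Perp and Phlda3 had ratios of 0.02 and 0.09.

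Of 7 genes of ERK feedback and targets, 0 were higher and 2 lower by 2-fold (median -0.87), beside 13.5% and 4.73% of all genes tested. Dusp6, an ERK phosphatase, was at 19.7 and 6.65 CPM and Spry1 at 4.57 and 1.77. Etv4 counted 53 UMIs in P and 1 in D, and Etv5 28 and 2. The summed level of the list went the other way, from 274 to 399.6, as Phlda1 alone was at 190.5 and 353. None of the 3 Wnt target genes with at least 100 UMIs, Axin2, Rnf43 and Znrf3, differed by 2-fold, with ratios of 0.15, 0.55 and 0.62 (median 0.55). Of the scarcer ones, Notum counted 41 UMIs in P and 2 in D (log2 ratio -3.96, -7.06 to -2.02), Tcf7 45 and 17 (-1.01, -1.91 to -0.18) and Lgr5 9 and 2.

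Of 6 TGF-β target genes, 3 were at least 2-fold higher and 1 lower, with a median of 0.55. For this and the lists that follow, 13.5% of all genes tested were higher by 2-fold and 4.73% lower. Pmepa1, a feedback gene of the pathway, had a level of 30.9 CPM in P against 564 in D, Smad7, an inhibitory Smad, at 17.2 and 50.4, and Skil at 26.0 and 68.5. Tgfbi was lower, at 23.0 and 7.04. Of the quiescence-associated genes, 2 of 10 were higher (Klf6 and Tob1) and 1 lower (Klf4), with a median of 0.13. For the cycle itself, all 12 mitosis genes were lower (median -3.14), while of the 12 S-phase genes 2 were lower, Ung and Rrm2, and 0 higher (median -0.01). The early-response genes had 7 of 12 higher and 0 lower (median 1.30). For the next counts, which take off the shift of the median gene, the share of all genes passing was not counted. They thus cannot be set against genes at large, and no result about a list is drawn from them. With the shift of the median gene taken off, 1 p53 target gene (Btg2), 1 Myc partner (Mxd4), 2 TGF-β target genes, 5 early-response genes and 0 quiescence-associated genes stayed at least 2-fold higher, and 5 of the ERK genes, 4 of the S-phase genes, 3 of the quiescence-associated genes, 3 of the other G1 and G1/S regulators and 2 of the TGF-β target genes were then at least 2-fold lower.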

How the data were processed

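Droplet-based 3′ single-cell libraries were made from 1 P and 1 D culture. Per the labels, the authors used bcl2fastq 2.19.0 and Cell Ranger 3.0.2 (GRCm38, mm10), and they deposited raw UMI counts per gene and barcode, with no normalization. Cells with over 800 genes and at most 12% mitochondrial UMIs were kept, which differs slightly from the number of P cells the study gives; 6 kept barcodes occur in both libraries. Of 28921755 UMIs in P and 22949953 in D, 26681469 and 20305621 were kept. Counts were summed per library, class or cluster (Python 3.11.15, scipy 1.17.1). Levels have exact Poisson, shares Clopper-Pearson and ratios conditional binomial intervals. Of these, only the ratio intervals were tested on simulated data, with counts drawn from the Poisson model that they assume. Clusters used Seurat 5.3.0 (R 4.3.3; 2000 variable features without the 9 genes, 25 components in P, 21 in D, resolution 0.2; joint integration over 25 dimensions, resolution 0.17). No doublet caller was run; the 5% of cells with the most UMIs were left out as an alternative. Named genes are the 9, members of the lists, and the 3 genes most alike to each, of which those for Cdkn1a are not reported here. The genes and lists were chosen with earlier results of these data known. Alternatives covered scaling, cell filters, class limits, resolution and features; that on early-response UMIs was chosen after seeing the data.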

Additional observations from a re-analysis of the deposited data

Results flagged for a closer look

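The 1376 barcodes of P and 2079 of D that failed the cell filter were used in no comparison above. There 5 of the 8 genes with at least 100 UMIs were higher in D, with intervals above 0, as were 58.2% of 5467 genes, whose median log2 ratio was 0.58, so the count is near that of genes at large. Per 1000000 non-mitochondrial UMIs, Ccnd2 was at 271 in P and 493 in D (log2 ratio 0.87), Ccnd3 at 31.6 and 47.8 (0.60), Cdkn1a at 89.9 and 234 (1.38), Cdkn1b at 61.7 and 101 (0.71) and Cdkn2b at 38.2 and 147 (1.94). Ccnd1, at 111 and 23.6 (-2.24, -2.71 to -1.78), and Myc, at 37.7 and 13.5 (-1.48, -2.16 to -0.83), were lower in D. Their intervals lay below 0, as did those of 13.9% of the genes. Cdkn2a was at 109 and 129.8 (0.25, -0.01 to 0.52) in these barcodes, beside 169.5 and 333 in kept cells. Ccnd3 and Cdkn1b were thus near the median gene here too. Cdkn1c counted 13 and 8 UMIs (log2 ratio -0.76, -2.23 to 0.62), beside a higher level in D in kept cells.

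Ccnd2 went in opposite directions between joint clusters in the libraries. On the log2 scale, joint cluster 2 differed from joint cluster 1 by -1.39 within P but by 1.15 within D. It differed from joint cluster 0 by -0.23 within P but by 1.53 within D. With 1 library each the difference was not tested, and the cells of joint cluster 2 came mostly from P cluster 0 in P and from the uroplakin cluster in D.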

How the results depend on the processing

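Of 81 log2 ratios between libraries under alternatives, 50 stayed within the counting interval of the value given, 29 moved with the same sign and 2 reversed. Both reversals came with scaling to the median ratio, which shifts every ratio by 0.42: Ccnd3 went to -0.082 and Cdkn1b to -0.025. With that scaling, 2 of the 9 genes were at least 2-fold higher in D (4 as given). The same count came with mitochondrial and ribosomal protein genes left out of the total. In these settings in turn, Ccnd2 stood at 0.65 and 0.74 and Cdkn1a at 0.78 and 0.87. For the counts under other scalings, class limits and anchor features, the share of all genes passing was not counted. They thus cannot be set against genes at large. Over all settings Ccnd1 ranged from -2.95 to -2.10, Myc from -1.87 to -1.35, Cdkn2b from 1.24 to 2.42, Cdkn2a from 0.54 to 1.38 and Cdkn1c from 1.20 to 2.29. With at least 1 gene for a class, 0 genes were 2-fold lower in mitotic cells, and with at least 3, 1 was higher and 2 lower in S-phase cells. Between the highest and lowest P cluster, 4 of the 9 genes differed by 2-fold (Ccnd2, Cdkn1a, Cdkn1c and Cdkn2b), and 7 at resolution 0.4, with more clusters. Of genes tested, 32.0% and 50.02% did. Only 8 of the 9 genes had the 100 UMIs in P asked of genes tested. Cdkn1c, with 99, did not, yet it is in both counts, so they are not like for like with these shares. With all anchor features 1 gene was lower in joint cluster 2 (2 as given). With a minimum of 20 UMIs per gene 2 lists had a median above that of all genes tested, and with 100 UMIs 4; the TGF-β list stood at -0.29 and 0.55. The cause of these changes was not tested beyond the scaling. No paired analysis was possible because each condition has 1 library and no test was made. Depth limits Cdkn1c (99 UMIs in P) and every gene in the 11 mitotic D cells.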
